A study of Homo sapiens with 3 samples.

Results

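Cholesterol and fatty acid synthesis genes were followed as a group of 33 listed genes: 18 of sterol synthesis and its regulation, and 15 of fatty acid synthesis, storage and oxidation. Of these, 27 had a probe set with a gene symbol in the array's annotation, out of 14884 genes named on the array. The sterol branch was measured for 14 of its 18 genes and the fatty acid branch for 13 of 15. FDFT1, LSS, SC5D and CYP51A1 of the first branch and ACSL3 and PPARGC1A of the second had no named probe set and have no value here. Where a gene had several probe sets, the brightest on average stands for it.

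The data were 3 one-colour Affymetrix whole-transcript arrays of the established lung cancer line A549, 1 array per group. Cells were transfected by lipofection with siTAZ (siRNA against TAZ, gene WWTR1), with siYAP (siRNA against YAP, gene YAP1) or with the control siRNA siNC, and RNA was taken 48 h later. All 3 groups share the line, the transfection reagent and the time, and the labels give no further detail of the siRNA sequences or the number of cultures. YAP and TAZ are transcriptional co-activators at the end of the Hippo pathway, and the series set out to find genes that depend on either. All levels are RMA values (a probe set summary after background correction and quantile normalization) on the log2 scale.

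Sterols are built from acetyl-CoA through mevalonate, squalene and a long series of enzymes that turn lanosterol into cholesterol. Fatty acids are built from the same acetyl-CoA by carboxylation, condensation, elongation and desaturation. The transcription factors SREBP2 and SREBP1 (genes SREBF2 and SREBF1) switch on most genes of these branches when membrane sterol is low, and INSIG1 holds them back in the endoplasmic reticulum when sterol is plentiful. In alveolar epithelium, from whose tumours A549 derives, fatty acid synthesis also feeds the lipids of surfactant.

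Each siRNA target was lowest on its own array: YAP1 was at 8.24 in the siTAZ array, 6.87 in the siYAP array and 8.45 in the siNC array, and WWTR1 at 5.81, 6.50 and 6.50. Against siNC, YAP1 was 2.99-fold lower in siYAP and WWTR1 was 1.61-fold lower in siTAZ, so the targets fell by unequal amounts. Array medians over 53617 probe sets were 4.26 (siTAZ), 4.27 (siYAP) and 4.28 (siNC). Of 5 epithelial markers, 4 were measured (CDH1 was not) and all lay at or above 4.27, the median probe set level used as a filter. KRT18 was at 11.38, 11.56 and 11.56 and EPCAM at 8.13, 8.19 and 8.23, again in the order siTAZ, siYAP, siNC. The alveolar markers were dim: SFTPA1 and NAPSA lay under the filter on every array, and NKX2-1, SFTPB and SFTPC between 4.61 and 5.04. Markers of leukocytes and endothelium were near or under the filter where measured, and of the fibroblast markers DCN was at 2.38 on all arrays while LUM was at 8.14 (siTAZ), 8.10 (siYAP) and 7.45 (siNC). The part of the LUM difference in the lipid gene values was not tested.

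With 1 array per group there was no replicate check, so no p-value or error is given and every difference describes these arrays. In bulk RNA, fewer cells of a type and less RNA per cell cannot be told apart. All 27 measured genes passed the filter, as did 10768 genes in all, which serve as the background. Many values were identical on different arrays to every deposited digit: 48.5% of the background genes for siTAZ and siNC, and 51.3% for siYAP and siNC. RMA takes medians over probes and arrays, and with few arrays it can return the same value more than once, so an identical value does not show an unchanged transcript.

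Sterol and fatty acid genes as a whole stayed close to the control in both knockdowns. None of the 27 genes was 1.5-fold higher or lower in the siTAZ array, where 0.762% of the background was higher and 1.02% lower by that fold. None was in the siYAP array either, against 0.52% higher and 0.381% lower in the background. A group of 27 genes would hold less than 1 such gene at these shares, so the absence of one does not set these genes apart. A lower mark was at least 25% higher or at least 20% lower than the control (equal steps on the log2 scale). It was passed by 3 genes, all of the sterol branch: ACAT2, DHCR7 and HMGCS1. ACAT2 and DHCR7 passed in siTAZ, 7.41% of the 27 genes against 7.51% of the background. HMGCS1 passed in siYAP, 3.7% against 4.6%. These shares lie near or below the background, so the count does not set these genes apart. With the mean of the siNC and the other knockdown array as the reference none of the 3 passed, with differences of 0.27 for ACAT2 and 0.17 for DHCR7 in siTAZ and of -0.24 for HMGCS1 in siYAP. DHCR7 also fell short in siTAZ (0.31) when the non-identical genes were centred on 0. The 5 widest gaps between any 2 arrays were those of ACAT2, MSMO1, DHCR7, HMGCS1 and INSIG1, from 0.38 down to 0.33.

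**Figure D1:**
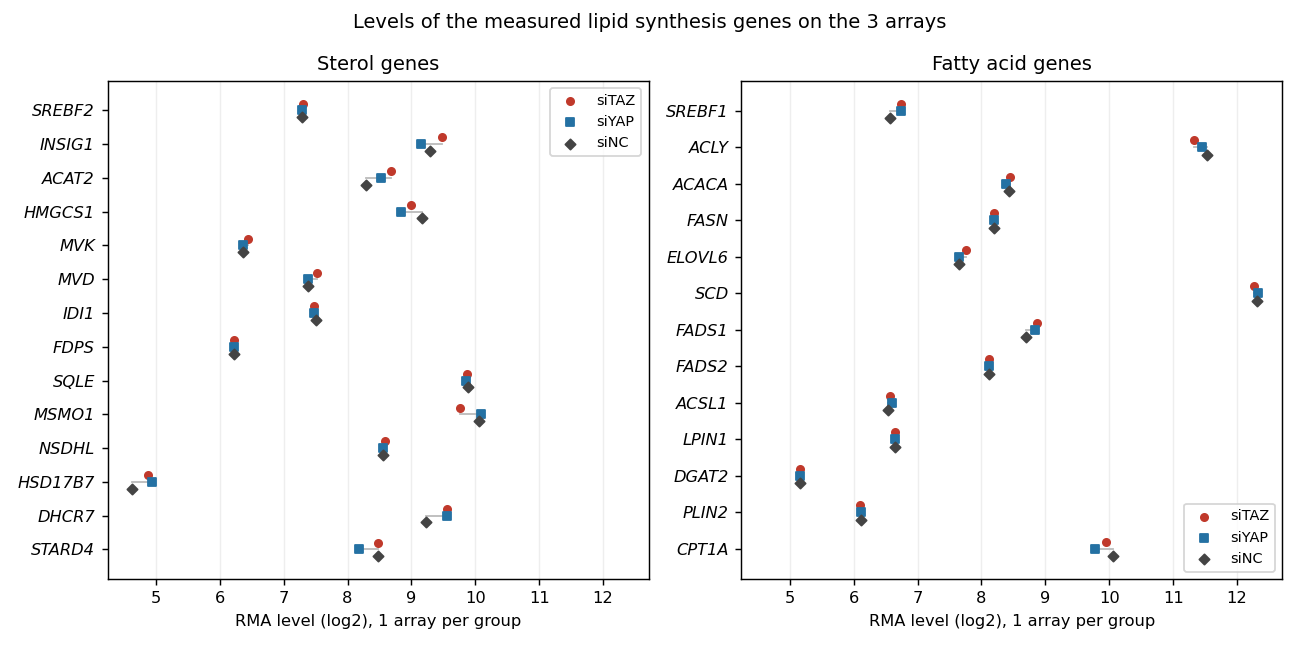
RMA level (log2, horizontal axis) of the 14 measured sterol genes (left) and the 13 measured fatty acid genes (right) on the siTAZ, siYAP and siNC arrays; each point is 1 array and the grey line joins the lowest and highest. The 3 points of most genes nearly coincide, and the widest gaps, such as 8.68 (siTAZ) against 8.29 (siNC) for ACAT2, are under 0.4 on the log2 scale.

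The comparison of siTAZ with siNC asked which genes depend on TAZ. Of the 14 sterol genes, 8 were higher, 4 lower and 2 identical in the siTAZ array, with a median difference of 0.032 on the log2 scale. In the background of kept genes 29.7% of genes were higher and 21.7% lower, with a median of 0. ACAT2 and DHCR7 were at least 25% higher, which is 2 of 27 measured members against 3.85% of the background, and 0 members were at least 20% lower, against 3.66%. Of the 13 fatty acid genes, 5 were higher, 4 lower and 4 identical, the median was 0, and none passed either mark.

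The comparison of siYAP with siNC asked the same of YAP. Among the sterol genes 5 were higher, 5 lower and 4 identical, with a median of 0. HMGCS1 was at least 20% lower, 1 of 27 members against 2.19% of the background, and 0 members were at least 25% higher, against 2.41%. Among the fatty acid genes 4 were higher, 4 lower and 5 identical, with a median of 0 and none past either mark. Both comparisons use the same siNC array, so a value of that array alone can move both.

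**Figure D2:**
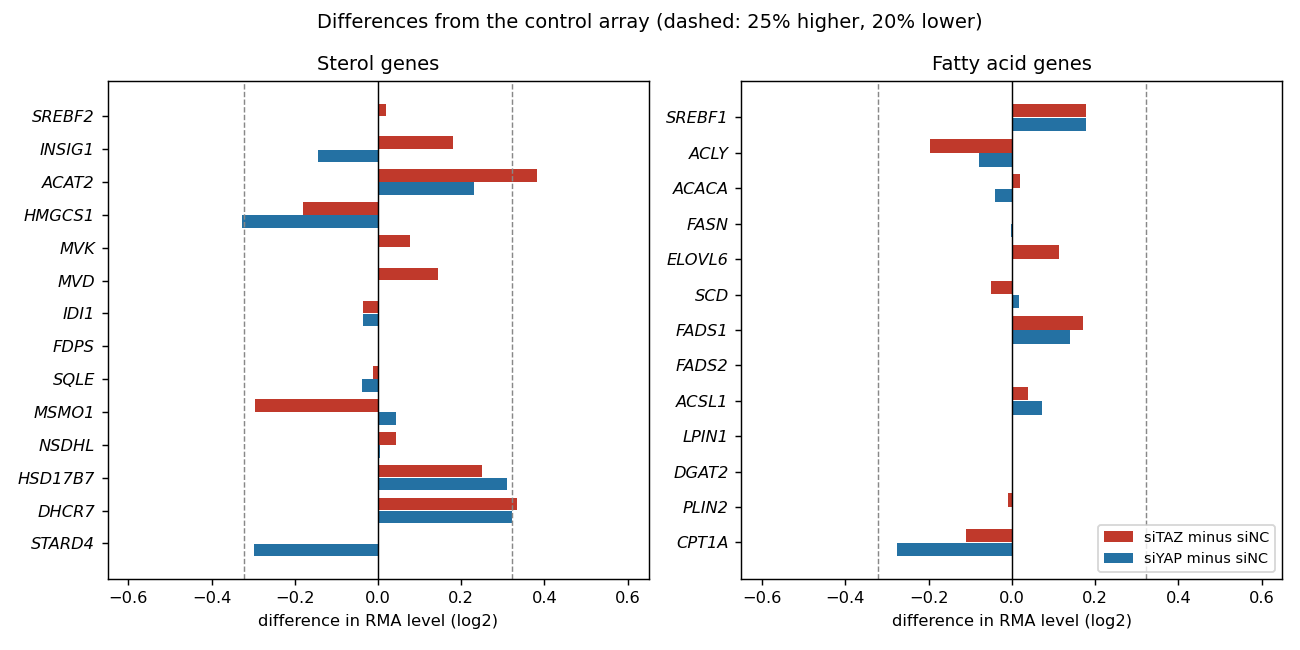
Difference in RMA level (log2, horizontal axis) from the siNC array for each measured gene, siTAZ above siYAP within a gene; dashed lines mark 25% higher and 20% lower. ACAT2 and DHCR7 lie past the line in siTAZ and HMGCS1 in siYAP, DHCR7 stops just short of it in siYAP, and no fatty acid gene reaches it.

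Of the regulators of the sterol branch, SREBF2 stayed near the control and INSIG1 did not. SREBF2, which encodes the SREBP that mainly drives sterol genes, was at 7.31 in the siTAZ array, 7.29 in the siYAP array and 7.29 in the siNC array, the last 2 being identical. INSIG1, itself a target of SREBP, was at 9.48, 9.15 and 9.30 in the same order. It thus lay on opposite sides of the control, 0.18 above it in siTAZ and 0.14 below it in siYAP, and its siYAP and siTAZ levels were 0.33 apart.

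ACAT2, the cytosolic thiolase that joins acetyl-CoA units at the head of the mevalonate pathway, was at 8.68 in the siTAZ array, 8.52 in the siYAP array and 8.29 in the siNC array. It was 1.3-fold higher in siTAZ and 1.17-fold higher in siYAP. HMGCS1, the synthase of the following step, went the other way: it was at 8.99 (siTAZ), 8.84 (siYAP) and 9.17 (siNC), which is 11.7% and 20.3% lower in the knockdowns. These neighbours in the pathway thus lay on opposite sides of the siNC array, which both comparisons share, so the knockdowns are not separate observations. Directly between the knockdowns they did not differ in direction: siYAP minus siTAZ was -0.15 for ACAT2 and -0.15 for HMGCS1.

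The later mevalonate enzymes were near the control. MVD, mevalonate diphosphate decarboxylase, was at 7.52 in siTAZ and at 7.38 in both other arrays. MVK, mevalonate kinase, was at 6.45 in siTAZ and at 6.37 in both others. IDI1, the isomerase of the isoprene units, was at 7.48 in both knockdown arrays and at 7.51 in siNC. FDPS, farnesyl diphosphate synthase, was at 6.22 on every array, and its dimmer probe set at 5.92 on every array. FDPS has pseudogene copies whose signal its probes may share.

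Of the 5 measured enzymes beyond squalene, DHCR7 alone passed the 25% mark, in siTAZ. DHCR7, the reductase of the last step towards cholesterol, was at 9.56 in siTAZ, 9.55 in siYAP and 9.23 in siNC, 0.33 and 0.32 above the control. HSD17B7, a sterol ketoreductase, was at 4.88, 4.94 and 4.63, or 1.19-fold and 1.24-fold higher. HSD17B7 was dim and has pseudogene copies, which leaves its fold uncertain. SQLE, squalene epoxidase, was at 9.88, 9.85 and 9.89, and NSDHL, the dehydrogenase of sterol demethylation, at 8.59, 8.55 and 8.55.

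MSMO1, the methyl sterol oxidase, and STARD4, a carrier of cholesterol between membranes, each lay further from the control in 1 knockdown than in the other. MSMO1 was at 9.76 in siTAZ, 10.10 in siYAP and 10.05 in siNC, so it was 1.23-fold lower in siTAZ and 0.043 higher on the log2 scale in siYAP. STARD4 was at 8.47 in siTAZ and siNC, with identical values, and at 8.17 in siYAP, 1.23-fold lower.

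Promoter sequence is shown for the genes with the widest gaps, because the factor NF-Y, which binds CCAAT, is a known partner of SREBP in this branch. RefSeq windows (GRCh38.p14) were matched by symbol for 28 of the 33 genes, 44 windows in all, and the 250 bases before each start were searched on both strands. CCAAT was found before 14 of 15 sterol genes and 5 of 13 fatty acid genes, against 37% of the 27305 genes in the table. By window, the shares were 80% (16 of 20), 29.2% (7 of 24) and 32% of 35116. The table was not limited to the genes kept here, and the sets were not matched for base content. The windows printed are chr5:43313413-43313662 (HMGCS1, minus strand), chr7:155297628-155297877 (INSIG1, plus strand), chr11:71448394-71448643 (DHCR7, minus strand) and chr4:165327419-165327668 (MSMO1, plus strand), with CCAAT or its complement ATTGG in capitals. ACAT2 is named only. Where a gene has several starts the window with the most matches is given.
HMGCS1: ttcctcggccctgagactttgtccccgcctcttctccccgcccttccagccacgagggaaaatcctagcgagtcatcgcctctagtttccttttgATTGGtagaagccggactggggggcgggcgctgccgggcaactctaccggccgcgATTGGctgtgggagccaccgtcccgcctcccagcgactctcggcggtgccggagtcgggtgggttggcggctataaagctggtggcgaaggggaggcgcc
INSIG1: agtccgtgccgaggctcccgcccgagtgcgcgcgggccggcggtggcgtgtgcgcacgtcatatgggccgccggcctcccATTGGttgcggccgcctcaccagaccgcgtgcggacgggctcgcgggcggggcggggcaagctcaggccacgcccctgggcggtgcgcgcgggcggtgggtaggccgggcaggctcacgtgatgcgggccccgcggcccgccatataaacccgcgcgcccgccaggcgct
DHCR7: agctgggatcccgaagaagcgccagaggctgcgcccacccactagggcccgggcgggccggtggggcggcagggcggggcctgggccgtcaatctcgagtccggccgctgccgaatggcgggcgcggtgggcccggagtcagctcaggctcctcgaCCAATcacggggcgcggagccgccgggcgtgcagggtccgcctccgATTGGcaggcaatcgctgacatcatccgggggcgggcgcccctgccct
MSMO1: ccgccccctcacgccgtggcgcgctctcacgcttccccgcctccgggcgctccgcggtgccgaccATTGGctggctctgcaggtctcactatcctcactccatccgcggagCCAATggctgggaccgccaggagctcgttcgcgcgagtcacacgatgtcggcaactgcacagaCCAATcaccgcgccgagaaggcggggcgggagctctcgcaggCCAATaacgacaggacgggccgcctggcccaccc

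MSMO1 held 4 matches, HMGCS1 and DHCR7 2 each and INSIG1 1. These counts hold for the windows printed, which were those with the most matches. HMGCS1 and DHCR7 each have another window, with 0 matches. A relation of CCAAT matches to the differences between arrays was not tested. A letter match describes the sequence and shows neither binding nor a cause.

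The sterol regulatory element, the site of SREBP, was searched as TCACNCCAC and in the looser form TCACNCNAC, which includes every match of the first. The strict form was found before 2 of the 28 genes (1.09% of all genes in the table) and the loose form before 5 (2.48% of all). By window, the strict form had a share of 4.55% (2 of 44) against 0.883% of all windows. The loose form had 11.4% (5 of 44) against 2.02%. The 5 are given with up to 15 bases on either side and the match in capitals, at chr22:41832957-41832995 (SREBF2, plus strand), chr1:155308711-155308749 (FDPS, plus strand), chr1:162790589-162790627 (HSD17B7, plus strand), chr11:61815968-61816006 (FADS2, plus strand) and chr4:184805772-184805803 (ACSL1, minus strand). The match of ACSL1 is on the opposite strand of its window.
SREBF2: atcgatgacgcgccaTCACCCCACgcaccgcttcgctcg
FDPS: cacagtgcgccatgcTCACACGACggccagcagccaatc
HSD17B7: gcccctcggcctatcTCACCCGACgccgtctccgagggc
FADS2: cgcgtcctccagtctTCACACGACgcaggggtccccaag
ACSL1: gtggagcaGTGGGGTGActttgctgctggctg

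The values of the members with such a match are given next, and a relation of match to value was not tested. FDPS and FADS2 had identical values on all 3 arrays, SREBF2 was within 0.020 of the control, ACSL1 was 0.039 and 0.073 above it in siTAZ and siYAP, and HSD17B7 0.25 and 0.31 above it. CATTCC is a core of the sites of TEAD factors, through which YAP and TAZ act. It was found before 6 of the 28 genes, 2 sterol and 4 fatty acid, against 14.3% of all genes in the table. By window its share was 13.6% (6 of 44), near the 11.9% of all windows. GGGCGG, the site of Sp1, was found before 25 of the 28, against 46.2%. By window its share was 75% (33 of 44), against 42.6% of all windows.

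In the fatty acid branch the regulator SREBF1, which encodes SREBP1, was at 6.74 in both knockdown arrays, with identical values, and at 6.57 in siNC, 1.13-fold higher in each. ACLY, which releases cytosolic acetyl-CoA from citrate, was at 11.33 (siTAZ), 11.44 (siYAP) and 11.52 (siNC), or 1.15-fold and 1.06-fold lower. The core enzymes of chain building stayed level. FASN, fatty acid synthase, was at 8.19 on every array, and ACACA, acetyl-CoA carboxylase, at 8.45, 8.38 and 8.42.

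The enzymes that lengthen and desaturate the chain showed small differences. FADS1, a front-end desaturase, was at 8.86 in siTAZ, 8.83 in siYAP and 8.69 in siNC, above the control in both knockdowns by 0.17 and 0.14. Its neighbour FADS2 was at 8.12 on every array. ELOVL6, the elongase of saturated chains, was at 7.76 in siTAZ and 7.65 in both others. SCD, the desaturase that makes oleate, was at 12.26, 12.33 and 12.31, and its other probe set at 7.05, 7.05 and 7.15.

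Genes that use fatty acids likewise stayed within the marks, and CPT1A lay furthest from the control. CPT1A, which admits fatty acids to mitochondria for oxidation, was at 9.95 in siTAZ, 9.78 in siYAP and 10.06 in siNC, or 1.08-fold and 1.21-fold lower. ACSL1, which activates fatty acids to acyl-CoA, was at 6.57, 6.60 and 6.53. The triglyceride enzyme genes LPIN1 (6.65) and DGAT2 (5.15) had identical values on all arrays, and the lipid droplet coat gene PLIN2 was at 6.10 in siTAZ and 6.11 in both others.

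Of the 27 members, 6 (22.2%) were identical to the control in siTAZ and 9 (33.3%) in siYAP, against 48.5% and 51.3% of the background. The members lay high on the array, with 17 of the 27 among the 2692 background genes with the highest levels. Of those 2692 genes, 25% were identical in siTAZ and siNC and 26.7% in siYAP and siNC. Of the 17 members among them, 3 were identical in siTAZ and 2 in siYAP. In siTAZ, 5.98% of the 2692 genes were at least 25% higher and 6.2% at least 20% lower, shares above those of the whole background.

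**Figure D3:**
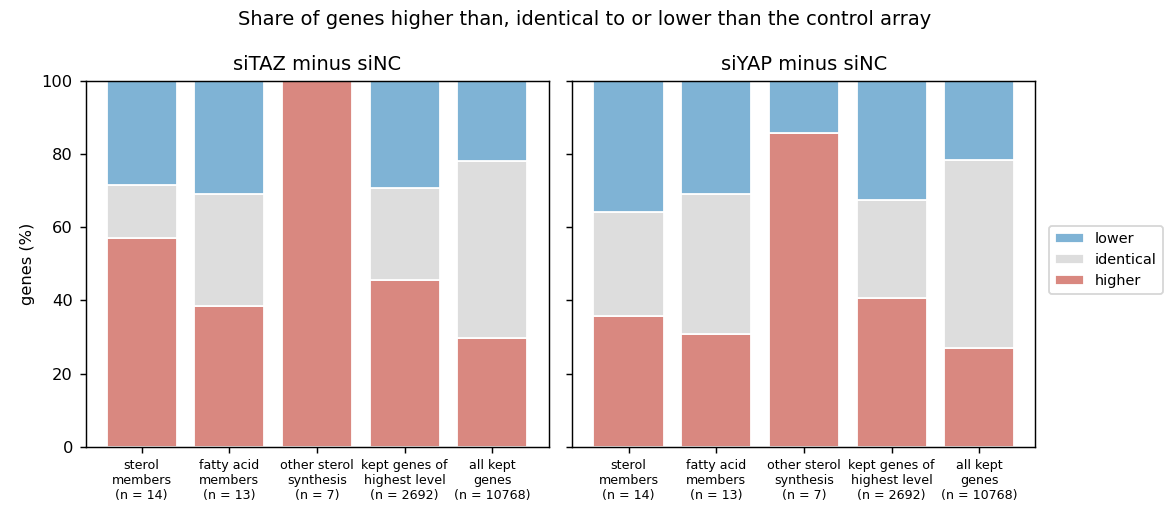
Share of genes (%, vertical axis) higher than, identical to or lower than the siNC array in siTAZ (left) and siYAP (right), for the measured sterol and fatty acid members, the 7 other sterol synthesis genes, the 2692 kept genes with the highest levels and all kept genes. All 7 other sterol synthesis genes are higher in siTAZ and 6 of 7 in siYAP, while the shares of the 14 sterol and 13 fatty acid members lie closer to those of the 2692 genes.

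The direct comparison of siYAP with siTAZ does not subtract the control array, though RMA works across arrays. Of the 14 sterol genes, 2 were higher, 10 lower and 2 identical in siYAP, with a median of -0.032, while 19.9% of the background was higher, 26.2% lower and 53.9% identical. Of the 2692 genes with the highest levels, 27.8% were higher and 43.4% lower. None of the 27 members reached 1.5-fold, which 0.566% of the background did upwards and 0.176% downwards. At the lower marks 2 of the 27 (7.41%) passed in either direction, against 3.56% of the background. MSMO1 was at least 25% higher and INSIG1 at least 20% lower in siYAP. Among the 2692 genes with the highest levels, 4.23% were at least 25% higher and 1.34% at least 20% lower. MSMO1, at 10.10 in siYAP and 9.76 in siTAZ, was 1.27-fold higher in siYAP. INSIG1, at 9.15 in siYAP and 9.48 in siTAZ, was 0.33 lower on the log2 scale. STARD4 followed at 1.23-fold lower. Of the 13 fatty acid genes 4 were higher, 5 lower and 4 identical, and the widest gap was that of CPT1A, 1.12-fold lower in siYAP.

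Other genes of the lipid pathways were taken from 6 lists written from general knowledge of the pathways, 115 genes in all, of which 62 had a named probe set and 56 passed the filter. At 1.5-fold, 2 of the 56 were lower in siTAZ, 1 was lower in siYAP and 0 were higher in either. In the background 1.02% were lower in siTAZ and 0.381% in siYAP, and 0.762% and 0.52% were higher, so 56 genes would hold under 1 of each. HACD3, a dehydratase of very long-chain fatty acid elongation, was at 10.51 in siTAZ, 11.69 in siYAP and 11.68 in siNC, which is 2.25-fold lower in siTAZ and 1.01-fold higher in siYAP. GPAT3, a glycerol-3-phosphate acyltransferase that starts triglyceride synthesis, was at 7.58 in siTAZ, 7.47 in siYAP and 8.32 in siNC. It was 1.66-fold lower in siTAZ and 1.8-fold lower in siYAP, a wider difference than that of any of the 27 members.

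The other sterol synthesis genes lay mostly above the control. All 7 that passed the filter, of 12 listed, were above the control in siTAZ (median 0.22) and 6 of 7 were above it in siYAP (median 0.20). In the background 29.7% of genes were higher in siTAZ and 27% in siYAP, with medians of 0, and of the 2692 genes with the highest levels 45.6% and 40.6% were. Both counts rest on the same siNC array, so they are not separate observations. Between siYAP and siTAZ, 3 of the 7 were higher in siYAP, 3 lower and 1 identical, with a median of 0. ERG28, a scaffold of the sterol demethylation enzymes, was at 10.18 in siTAZ, 10.09 in siYAP and 9.88 in siNC. EBP, the sterol isomerase, was at 8.65, 8.62 and 8.43, and PMVK, phosphomevalonate kinase, at 6.84, 6.87 and 6.66. CYB5R3, a cytochrome b5 reductase that passes electrons to sterol and fatty acid enzymes, was at 8.76, 8.89 and 8.37, or 1.31-fold and 1.43-fold higher. TM7SF2, a sterol reductase, was at 5.64, 5.68 and 5.40. LBR, a nuclear envelope protein that is also a sterol reductase, was the exception, at 9.21 in siTAZ, 8.81 in siYAP and 9.17 in siNC. FAXDC2 was at 4.99 in both knockdowns and 4.88 in siNC. Of these 7, CYB5R3 alone was at least 25% higher, in both knockdowns, and LBR alone at least 20% lower, in siYAP; in the background 3.85% of genes were that much higher in siTAZ and 2.41% in siYAP, and 2.19% that much lower in siYAP.

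The other 5 lists had medians of 0 in siTAZ and of 0 to 0.029 in siYAP. Among the SREBP and LXR regulators, USF1, an E-box factor that acts on fatty acid synthase, was at 7.23 in siTAZ, 7.26 in siYAP and 6.88 in siNC, while the SREBP escort SCAP was at 7.44 on every array. MLX, a dimer partner of the glucose-responsive factor ChREBP, was at 9.22, 9.36 and 9.34. Among the other fatty acid genes, the elongases ELOVL4 (5.98 in siTAZ, 6.54 in siYAP, 6.39 in siNC) and ELOVL7 (7.25, 6.78 and 6.87) differed in opposite directions in siTAZ. In the oxidation list the electron transfer gene ETFDH was at 7.87, 7.71 and 7.52, and the nuclear receptor gene PPARD at 6.52 in both knockdowns and 6.17 in siNC. ACAA2, a mitochondrial thiolase, was at 8.45, 8.49 and 8.45, and the lipid droplet coat gene PLIN3 at 8.12 on every array. SOAT1, which esterifies cholesterol for storage, was at 9.70, 9.45 and 9.52. OSBP, the oxysterol-binding protein, was at 9.40 on every array. MLX, ACAA2, PLIN3 and SOAT1 were the brightest of their lists, and the other examples were chosen after their values were seen.

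**Figure D4:**
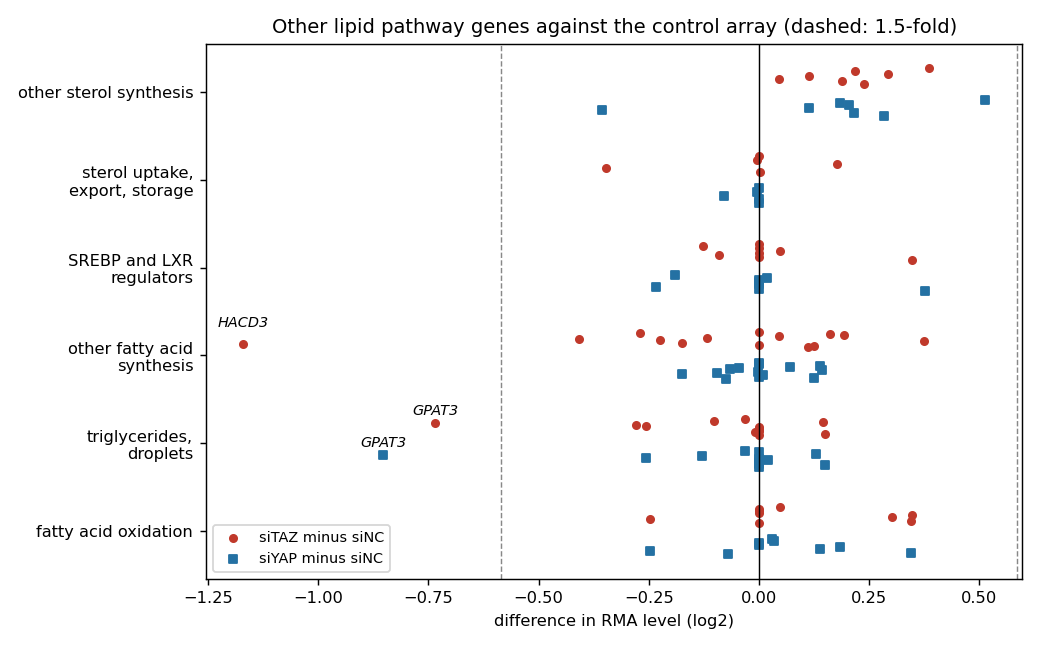
Difference in RMA level (log2, horizontal axis) from the siNC array for the 56 kept genes of the 6 other lipid pathway lists; each point is 1 gene, siTAZ above siYAP within a list, and dashed lines mark 1.5-fold. HACD3 (siTAZ) and GPAT3 (both knockdowns) lie past the line, and the other sterol synthesis genes lie right of 0 except LBR in siYAP.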

How the data were processed

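Expression was measured on 3 arrays. The authors summarised the arrays with RMA, per the submitters' processing notes; version, probe annotation and build were not stated. The deposited values carry no named scale and were read as log2, since they run from 0.961 to 13.5 with near-equal medians. Quantile normalization makes each value relative to its array, and the small number of arrays limits the precision.

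Of 53617 probe sets, 16098 had 1 symbol, 0 several and 37519 none. All 16098 Entrez identifiers matched the RefSeq table (GRCh38.p14), which changed 0 symbols. Coordinates are those of RefSeq promoters only. Genes were kept at a mean of 4.27 or more, the median over probe sets. Differences are of log2 values, and counts use at least 25% higher, at least 20% lower and 1.5-fold (Python 3.11.15, pandas 2.3.3). The counting was tested on simulated data. No test across replicates was possible. All measured members, genes of the other lists at 1.5-fold, the brightest of each list and both siRNA targets were to be named. Members and lists were chosen with earlier results of these data known. The alternatives tried were 2 other filters, centring, removal of a loess trend (span 0.4), averaging over a gene's probe sets, a repeated quantile normalization and a mixed reference.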

Additional observations from a re-analysis of the deposited data

How the results depend on the processing

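The medians of both branches moved by less than 0.1 (log2) under every alternative run. The sterol median ranged from 0.0055 to 0.058 in siTAZ and from -0.018 to 0 in siYAP, and the fatty acid median from -0.027 to 0.0016 and from -0.018 to 0. No count at 1.5-fold changed for either branch. Counts at 25% higher or 20% lower, small to begin with, did. With the median of non-identical genes shifted to 0 (by 0.027 in siTAZ), 1 sterol gene was higher (ACAT2, no longer DHCR7) and 1 lower (MSMO1) in siTAZ, and 1 passed either mark in siYAP minus siTAZ (MSMO1, no longer INSIG1). After a new quantile normalization 1 was lower in siTAZ (MSMO1) and 1 higher in siYAP (DHCR7). With the mean of siNC and the other knockdown as reference 0 were higher in siTAZ and 0 lower in siYAP. That reference holds the other knockdown, and it moved 10 of 54 values of single genes by 0.1 or more. None was reversed among the few past either mark. Among smaller differences some signs did change, including CPT1A in siTAZ (from -0.11 to 0.029) and ACLY in siYAP (from -0.08 to 0.019). For the other lists, no filter or the mean of all probe sets moved none of 36 medians by 0.1 and none of 132 counts by over 1.5 times.

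No paired analysis was possible because each group held 1 array. The cause of these changes was not tested. Differences of this size cannot be set against any spread between cultures, and the dim genes HSD17B7 and DGAT2 fall under the filter at the 75th percentile (5.81).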
